A study of Mus musculus with 6 samples.

Results

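Oxidative phosphorylation is carried out by 5 protein complexes of the inner mitochondrial membrane. Complexes I and II pass electrons to ubiquinone, complex III hands them on to cytochrome c, and complex IV transfers them to oxygen. The protons pumped by complexes I, III and IV drive the ATP synthase, complex V. Most subunits are encoded in the nucleus, and stem cells are known for relying on glycolysis to an extent that differs between cell types and culture conditions.

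The genes described here are those nuclear genes whose mouse symbol begins with Nduf, Uqcr or Atp5, is Sdha to Sdhd, or names a subunit of the families Cox4i, Cox5, Cox6, Cox7 and Cox8. They were found through the accession printed for each probe on the array. This gave 96 probes of 72 genes, out of 41006 probes on the array and 12323 genes that could be named. By complex there were 28 genes of complex I, 3 of complex II, 5 of complex III, 17 of complex IV and 15 of complex V, with 4 assembly factors of complex I beside them. Ndufa4, named for complex I, was counted with complex IV, where it is now placed. A further 24 of the 96 protein-coding genes that meet the name rule had no probe that could be named and are not analysed here, among them Sdha, Ndufv2, Ndufs3 and Uqcrfs1.

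A total of 3 kinds of cultured mouse cell were hybridized, with 2 arrays each. MAPC (multipotent adult progenitor cells) were grown out of bone marrow, depleted of CD45+ and Ter119+ cells after 4 weeks and replated at 10 cells per well. They were cultured in 5% O2 with 2% fetal calf serum, EGF, PDGF-BB and LIF, and were used beyond population doubling 80. The labels name the MAPC source mMAPC-1, describe both samples as clone 2 with high Oct4, and give neither a mouse strain nor whether they were separate cultures. ESC were C57BL/6 embryonic stem cells in 15% serum and LIF on irradiated feeder fibroblasts, plated without feeders before RNA collection. NS were C57BL/6 neurospheres from the forebrain of E11.5 embryos, kept in N2-plus medium with bFGF and EGF at 20 ng/mL. Cell type and culture, oxygen and serum included, cannot be told apart in any comparison. The submitters call the arrays of a group biological replicates, and p-values measure the spread between these samples.

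On every array the sample was labelled with Cy3 and a pooled RNA of 11 mouse cell lines with Cy5. Each value is the log2 ratio of sample to this pool, so it compares arrays for 1 probe and says nothing about the level of 1 gene against another. The dyes were not swapped. A difference between cell types was called when its adjusted p was under 0.05 in limma's moderated test, adjusted by Benjamini-Hochberg over all 39402 probes tested. A gene is given by its brightest probe unless another is named. In bulk RNA, fewer cells of a type and less RNA per cell cannot be told apart.

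Marker genes were set beside the labels. The marker lists were chosen with earlier results of these data known, so their values describe the samples and are not an independent check. All 13 measured embryonic stem cell markers were lower in MAPC than in ESC, all 9 markers of MAPC cultures were higher in MAPC than in both other cells, and 9 of 12 neural progenitor markers were lower in MAPC than in NS. Of all tested probes 22.4% were lower and 21.8% higher in MAPC than in NS, and 18.3% and 20.4% in ESC than in NS. In MAPC against ESC 22.2% were lower and 16.3% higher. Fibroblast markers moved with ESC: 8 of 9 were lower in MAPC than in ESC, and in ESC against NS 7 of 9 were higher and 1 was lower. Their summed Cy3 signal above background was 32111 to 33362 on the ESC arrays, 2813 to 3318 on the MAPC arrays and 9243 to 11156 on the NS arrays, and their part in the differences involving ESC was not tested. Of these 9 fibroblast markers, 3 exceeded every negative control spot on both MAPC arrays, against 9 in ESC and 8 in NS. Of 7 neuron markers, 6 were lower and 1 higher in MAPC than in NS (median -0.46). In ESC against NS, 5 were lower and 2 higher (median -0.28). Their summed signal was 6666 to 8600 in MAPC, 26534 to 27550 in ESC and 10116 to 11243 in NS, and their part in the differences from NS was not tested. The arrays labelled replicate 1 and replicate 2 had been image-extracted on different days, each day holding 1 array of every group.

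As a group the oxidative phosphorylation probes were bright. Their 96 probes were well above background on all 6 arrays and none was saturated. The median of their mean log2 intensity was 12.99, against 8.04 for all tested probes, and 64 of them (66.7%) exceeded 12, as did 5.37% of tested probes. The arrays of a group differed little, with a median SD of 0.04 log2 units over the member probes.

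Most of these genes were lower in MAPC, and most were lower in ESC, than in NS. In MAPC against NS, 47 of the 72 genes were lower in MAPC and 8 were higher, with a median log2 difference of -0.40. In ESC against NS, 44 were lower in ESC and 5 were higher, with a median of -0.31. Between MAPC and ESC the calls went both ways, with 22 genes lower and 14 higher in MAPC and a median of -0.04. These comparisons share arrays and are not independent of one another.

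By probe, 60 of 96 were lower and 8 higher in MAPC than in NS, while 22.4% of all tested probes were lower, 21.8% were higher and 44.2% were called either way. In ESC against NS, 56 were lower and 6 higher, beside a background of 18.3% lower, 20.4% higher and 38.7% called. For MAPC against ESC, 32 were lower and 16 higher, beside 22.2% lower, 16.3% higher and 38.5% called. The share higher in MAPC than in ESC, 16.7%, thus lay near the background. The medians over all tested probes were 0.03, 0.01 and 0.01 in these comparisons.

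Because the members are bright, they were also set beside the 2115 tested probes with a mean log2 intensity over 12, a limit chosen after seeing the data. Of those bright probes 43.3% were lower and 30.0% higher in MAPC than in NS, and 34.2% were lower and 32.5% higher in ESC than in NS. Of the 64 bright members, 48 were lower in MAPC than in NS and 44 were lower in ESC than in NS, 75.0% and 68.8%. Between MAPC and ESC, 24 of the 64 bright members were lower, 37.5%, beside 42.0% of bright probes, and 12 were higher beside 23.5%. The share of lower members thus lay above that of the bright probes in both comparisons with NS and below it between MAPC and ESC.

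**Figure D1:**
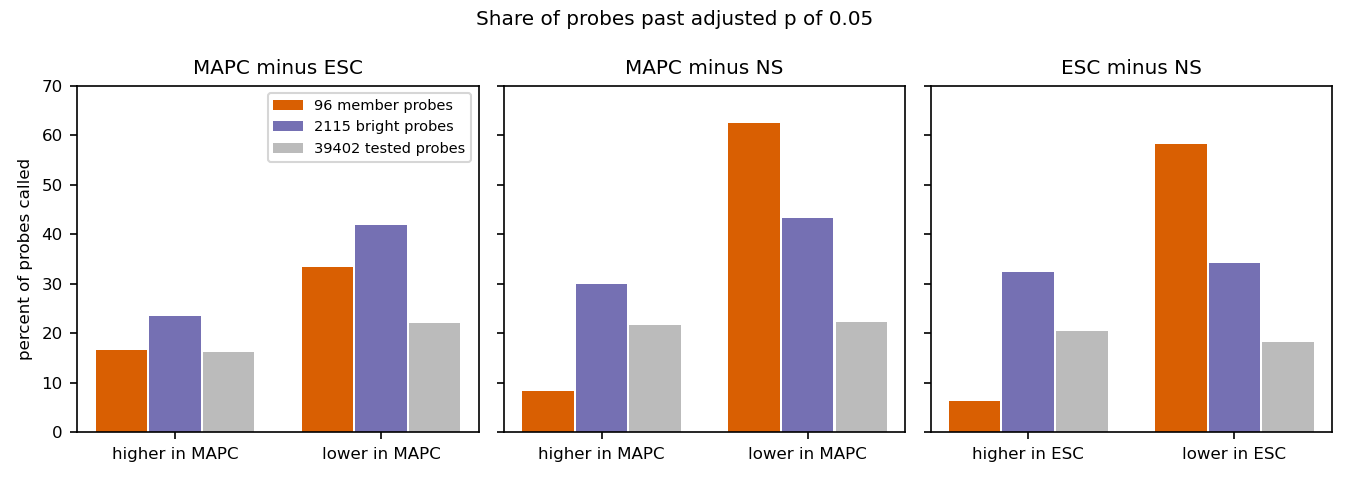
Percent of probes called (adjusted p under 0.05) in each direction, on the y axis, for the 96 member probes, 2115 bright probes and 39402 tested probes in each comparison. Members called lower than in NS, 60 probes in MAPC and 56 in ESC, exceed both backgrounds.

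The size of the shift against NS depended on the normalization. Loess removes the dependence of the ratio on intensity within each array, and median centring in its place left it in. With median centring the bright probes had a median difference of 0.11 in MAPC against NS and 0.19 in ESC against NS, and the members -0.18 and -0.16. With loess the corresponding medians were -0.11 and -0.03 for bright probes and -0.39 and -0.25 for member probes. Under median centring 44 member probes were lower and 13 higher in MAPC than in NS, and 32 were lower and 10 higher in ESC than in NS. The members lay below the bright probes under both settings. Of the genes described one by one, median centring ended the calls of Atp5g1, Atp5g3, Atp5j2, Cox4i1, Cox6a1, Cox8a, Uqcrb and Uqcrc2 in MAPC against NS. In ESC against NS it ended those of Atp5g1, Atp5g2, Atp5j, Atp5l, Cox6a1, Cox6c, Cox7a2, Cox7c, Ndufa4, Uqcr11 and Uqcrc2. It also ended those of Atp5j2, Atp5o and Cox7a2 between MAPC and ESC, where the Cy3 channel alone gave 15 lower and 13 higher probes in place of 32 and 16. The Cy3 channel alone ended the calls of Atp5j, Atp5j2, Atp5o, Cox7a2, Cox7a2l, Cox7b2, Cox8b, Ndufaf1, Ndufaf5, Ndufv3 and Uqcrb between MAPC and ESC. It ended those of Atp5g1, Atp5g3, Cox4i1, Cox4i2, Cox6a1, Cox7a1, Cox7b2, Ndufaf3, Ndufaf4 and Uqcrb in MAPC against NS. In ESC against NS it ended those of Atp5g1, Cox7a1, Cox7a2, Cox7c, Ndufa4, Ndufa7, Ndufaf1 and Ndufaf3.

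**Figure D2:**
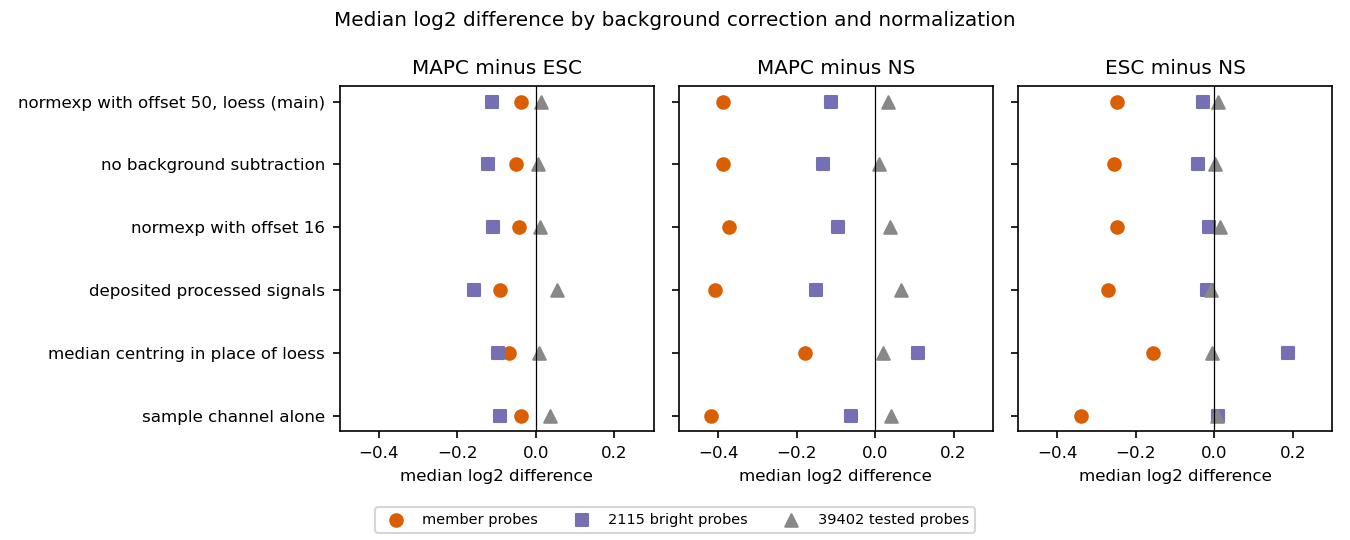
Median log2 difference (x axis) of the 96 member probes, the bright probes and all tested probes under each background correction and normalization (y axis). In both comparisons with NS the members lie to the left of the bright probes in each row, with the smallest member shifts under median centring, -0.18 and -0.16.

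Within each extraction day the direction was as in the whole data. The median of the member probes in MAPC against NS was -0.36 on the day of the replicate 1 arrays and -0.39 on the other. For ESC against NS it was -0.33 and -0.20, and for MAPC against ESC -0.02 and -0.10.

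**Figure D3:**
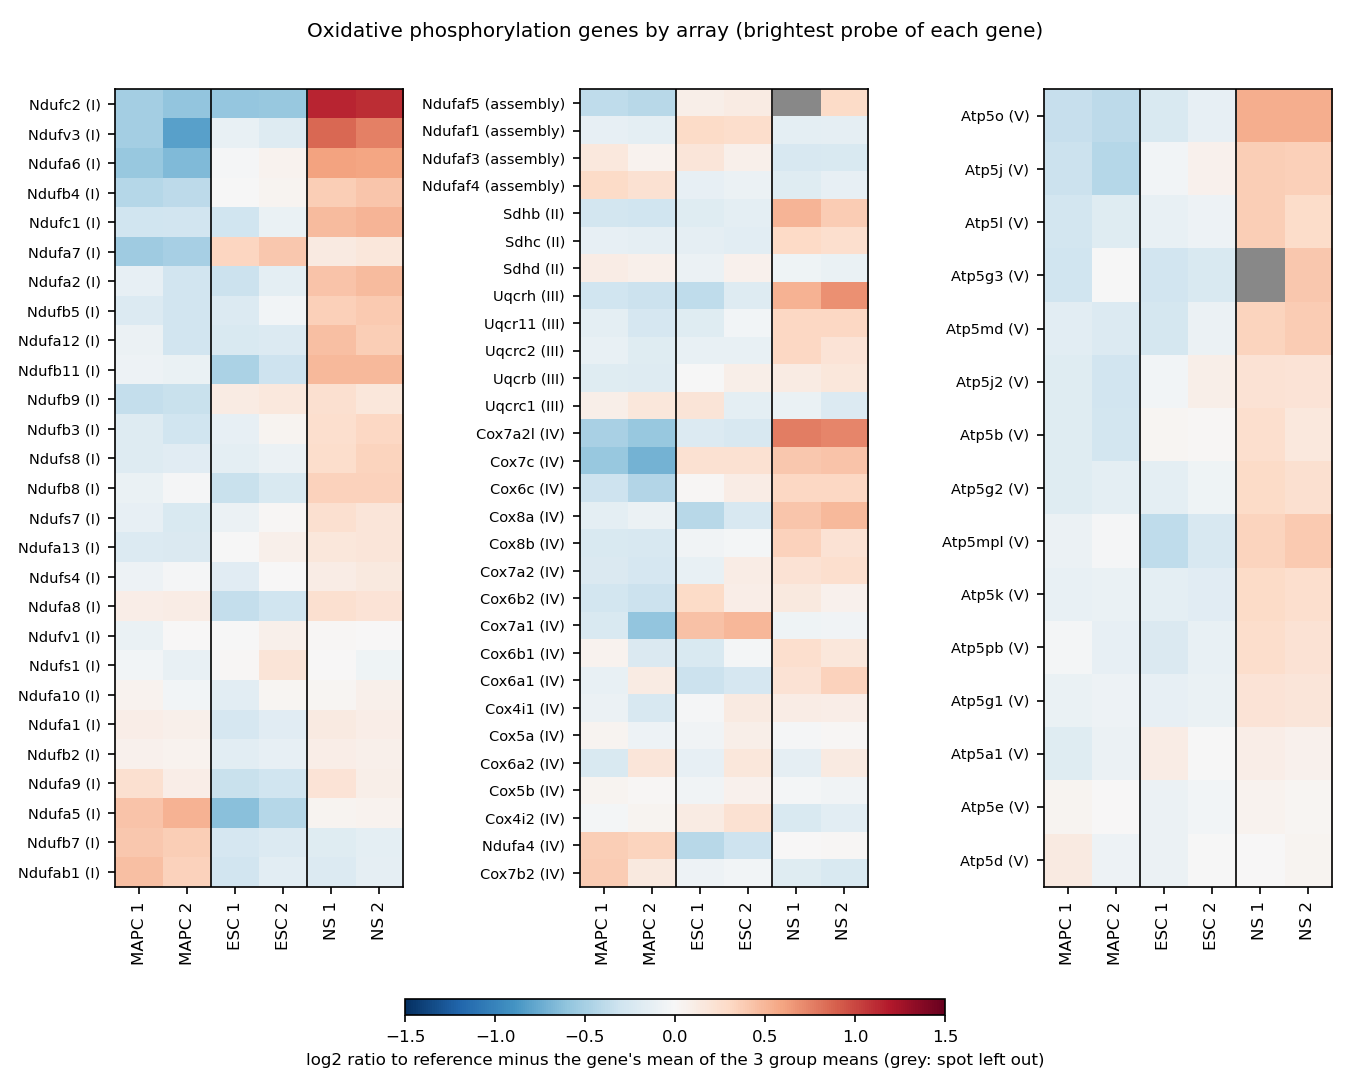
Genes of the set (rows, complex in brackets) on each of the 6 arrays (columns), as the log2 ratio to the reference minus the gene's mean of the 3 group means; grey marks a spot left out. Many rows are highest on both NS arrays, and Ndufab1, Ndufb7, Ndufa5 and Ndufa4 are highest on both MAPC arrays.

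Complex I oxidizes NADH. Of its 28 genes, 17 were lower and 3 higher in MAPC than in NS, 20 were lower and 1 higher in ESC than in NS, and in MAPC against ESC 7 were lower and 9 higher. The medians were -0.44, -0.35 and -0.02, and single genes ranged from -1.68 to 0.57, from -1.70 to 0.21 and from -0.88 to 1.01. The shares lower against NS, 60.7% in MAPC and 71.4% in ESC, stand beside 22.4% and 18.3% of all tested probes. Of the bright probes 43.3% and 34.2% were lower there. In MAPC against ESC, 22.2% of all tested probes and 42.0% of bright probes were lower, and 16.3% and 23.5% were higher. The 7 of 28 genes lower in MAPC than in ESC thus lay near the share of all tested probes and below that of bright probes. The 9 higher, 32.1%, lay above both.

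Ndufc2, an accessory subunit of the membrane arm, had log2 ratios of 1.03 and 0.95 in MAPC, 0.97 and 0.97 in ESC and 2.68 and 2.65 in NS. The NS arrays stood apart and the MAPC and ESC arrays overlapped. Ndufc2 was 3.21-fold lower in MAPC than in NS (log2 difference -1.68, SE 0.05, adjusted p = 1.7e-07 in limma) and 3.25-fold lower in ESC than in NS (-1.70, SE 0.05). It was the one gene at least 2-fold apart in ESC against NS, where 9.01% of all tested probes were called at that size.

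Ndufv3, an accessory subunit of the NADH-oxidizing module whose probe exceeded every negative control spot on 5 of 6 arrays, read 0.09 and -0.20 in MAPC, 0.49 and 0.41 in ESC and 1.47 and 1.36 in NS. The groups did not overlap, and MAPC lay 2.78-fold below NS (-1.47, SE 0.10) and ESC 1.95-fold below NS (-0.96, SE 0.10). Ndufa6, an accessory subunit with an LYR motif, showed the same order, at -2.77 and -2.87 in MAPC, -2.22 and -2.15 in ESC and -1.60 and -1.61 in NS. Its MAPC level was 2.32-fold below NS (-1.21, SE 0.06) and its difference from ESC was -0.63 (SE 0.06). Ndufa7, another accessory subunit, was lower in MAPC alone, at -0.95 and -0.91 against -0.09 and -0.01 in ESC and -0.28 and -0.24 in NS. It was 1.84-fold below ESC (-0.88, SE 0.06) and 1.59-fold below NS (-0.67, SE 0.06). The higher reading of Ndufa7 in ESC than in NS (0.21, SE 0.06) lost its call without ESC array 2 (0.16), without NS array 1 (0.19) and without NS array 2 (0.23).

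Ndufa5 moved the other way. This accessory subunit read -0.32 and -0.22 in MAPC, -1.38 and -1.18 in ESC and -0.70 and -0.70 in NS, with no overlap. It was 2.01-fold higher in MAPC than in ESC (1.01, SE 0.08, adjusted p = 2.5e-05 in limma) and the one gene at least 2-fold apart there, where 8.56% of tested probes were. It was also higher in MAPC than in NS (0.43, SE 0.08). Ndufab1, the mitochondrial acyl carrier protein, which also serves fatty acid synthesis in the mitochondrion, was 0.62 above ESC and 0.57 above NS (SE 0.07 for both). Ndufb7, a subunit of the membrane arm, was 0.62 above ESC and 0.56 above NS (SE 0.05 for both). The arrays of MAPC lay above those of ESC and NS for both genes, at 1.65 and 1.54 against 0.91 to 1.06 for Ndufab1 and at 0.08 and 0.05 against -0.58 to -0.48 for Ndufb7.

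Of the core subunits, Ndufv1, which accepts electrons from NADH, and Ndufs1, the largest iron-sulfur subunit, were called in no comparison, with differences between -0.18 and 0.13. The iron-sulfur subunits Ndufs7 and Ndufs8 were lower in MAPC than in NS, by -0.39 (SE 0.07) and -0.48 (SE 0.06). Both were also lower in ESC than in NS, by -0.25 (SE 0.07) and -0.41 (SE 0.06), and not called between MAPC and ESC.

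The 4 assembly factors, proteins that build complex I without staying in it, split. Ndufaf4 was higher in MAPC, at 1.47 and 1.42 against 1.06 and 1.10 in ESC and 1.01 and 1.06 in NS (0.36 above ESC and 0.41 above NS, SE 0.05 for both). Ndufaf1 was higher in ESC, at 0.82 and 0.80 against 0.41 and 0.39 in MAPC and 0.38 and 0.39 in NS. Ndufaf3 was lower in NS, by 0.34 against MAPC and 0.36 against ESC (SE 0.06 for both). Ndufaf5 was lower in MAPC than in ESC (-0.51, SE 0.06), and than in NS (-0.69, SE 0.07), where 1 NS spot was left out and the value rests on 1 NS array. Its other probe, measured on every array, gave -0.75 for MAPC against NS. With the Cy3 channel alone, the calls were lost for Ndufaf1 and Ndufaf3, for Ndufaf4 in MAPC against NS (0.28) and for Ndufaf5 in MAPC against ESC (-0.44).

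Complex II, succinate dehydrogenase, also belongs to the citrate cycle. Sdhb, its iron-sulfur subunit, read -0.27 and -0.29 in MAPC, -0.17 and -0.14 in ESC and 0.52 and 0.39 in NS. It was 1.67-fold lower in MAPC than in NS (-0.74, SE 0.06) and also lower in ESC (-0.61, SE 0.06). Sdhc, a membrane anchor, was lower in MAPC (-0.41) and in ESC (-0.43) than in NS (SE 0.05 for both). Sdhd, the other anchor, gave 0.18 (SE 0.07) and 0.07 (SE 0.07) in these comparisons and was not called. In MAPC against NS it was called without either ESC array, in a fit of these groups alone (0.18 each) and with median centring (0.22). With the Cy3 channel alone Sdhd was lower in ESC than in NS (-0.51, adjusted p = 0.015 in limma) and higher in MAPC than in ESC (0.40, adjusted p = 0.042 in limma). None of the 3 genes was otherwise called between MAPC and ESC, except Sdhb without background subtraction (-0.14).

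Of the 5 genes of complex III, 4 were lower in MAPC than in NS and 3 were lower in ESC than in NS. The shares, 80% and 60%, stand beside 22.4% and 18.3% of all tested probes and 43.3% and 34.2% of bright probes. Uqcrh, the hinge protein beside cytochrome c1, read -2.08 and -2.12 in MAPC, -2.17 and -1.99 in ESC and -1.27 and -1.11 in NS. MAPC and ESC overlapped and lay 1.88-fold (-0.91, SE 0.08) and 1.86-fold (-0.89, SE 0.08) below NS. The small subunit Uqcr11 and the core protein Uqcrc2 were lower than in NS in both, by -0.52 and -0.40 in MAPC and -0.42 and -0.37 in ESC. Uqcrc1, the other core protein, was called in none, with 0.28 (SE 0.11) in MAPC against NS. Uqcrb, the ubiquinone-binding subunit, was lower in MAPC than in NS (-0.34, SE 0.06) and than in ESC (-0.23, SE 0.06), the latter not called without MAPC array 2 (-0.23) or without ESC array 2 (-0.19). Another probe of Uqcrb was called lower in both comparisons (-0.23 and -0.20), and the remaining probe in neither (-0.18 and -0.16).

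**Figure D4:**
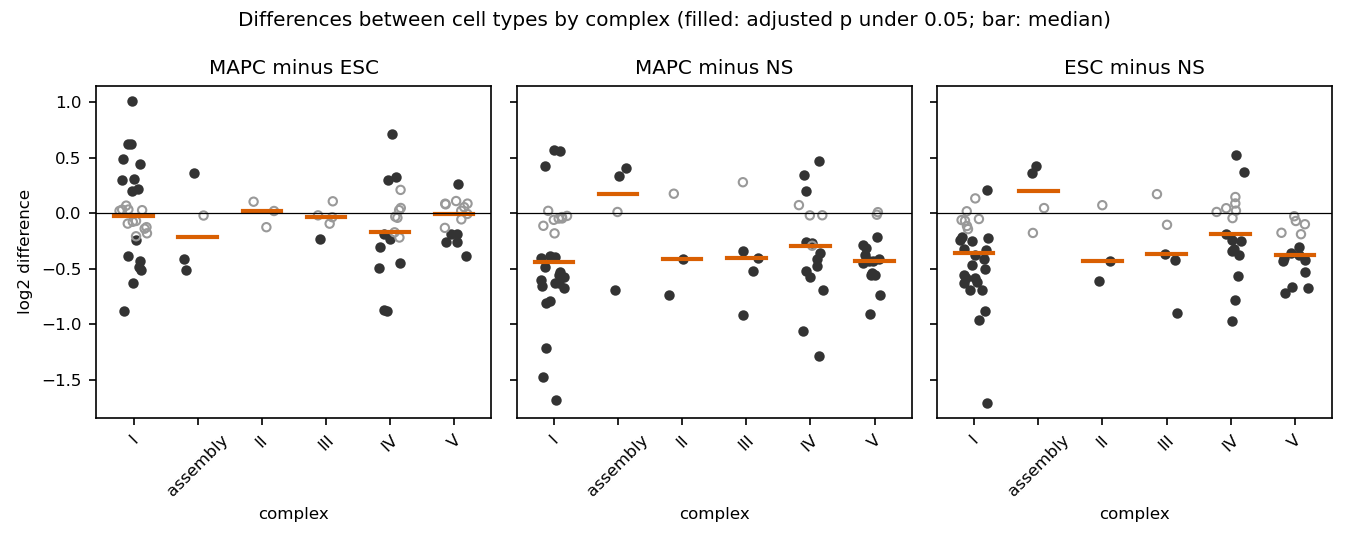
Log2 difference (y axis) of each gene's brightest probe by complex (x axis) in the 3 comparisons; filled points passed adjusted p of 0.05, open points did not, and bars are medians. Against NS the medians of complexes I to V are below 0, and in complex V no brightest probe is called higher.

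In complex IV, cytochrome c oxidase, 10 of 17 genes were lower and 3 higher in MAPC than in NS, and 9 were lower and 2 higher in ESC than in NS. Between MAPC and ESC, 7 were lower and 3 higher in MAPC. The medians were -0.29, -0.19 and -0.17. The shares lower were 58.8%, 52.9% and 41.2%, beside 22.4%, 18.3% and 22.2% of all tested probes and 43.3%, 34.2% and 42.0% of bright probes. Between MAPC and ESC the share lower thus lay near that of the bright probes, and the 17.6% higher lay near the 16.3% of all tested probes. Cox7a2l, a relative of subunit 7A that joins complexes III and IV into supercomplexes, read -1.48 and -1.56 in MAPC, -1.19 and -1.23 in ESC and -0.22 and -0.26 in NS. The groups did not overlap, and MAPC was 2.43-fold (-1.28, SE 0.06) and ESC 1.96-fold (-0.97, SE 0.06) below NS. Its dimmer probe, with 1 MAPC spot left out, gave -0.98 and -0.71.

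Cox7c, a small structural subunit, was low in MAPC, at -0.36 and -0.50 against 0.44 and 0.44 in ESC and 0.61 and 0.64 in NS. It was 1.83-fold below ESC (-0.87, SE 0.06) and 2.08-fold below NS (-1.06, SE 0.06). Cox6c was lower in MAPC than in NS (-0.69, SE 0.06) and than in ESC (-0.44, SE 0.06). Both were lower in ESC than in NS with loess (-0.19 for Cox7c and -0.25 for Cox6c, SE 0.06 for both) and not lower with median centring, 0.09 and 0.0035. Together with Ndufc2, Ndufv3, Ndufa6 and Cox7a2l, Cox7c was among the 5 genes at least 2-fold lower in MAPC than in NS, where 11.4% of all tested probes were called at that size. The Cox7c call in ESC against NS was lost without ESC array 1 or 2 (-0.19 for each) and without NS array 1 (-0.20) or 2 (-0.17), and that of Cox6c without ESC array 1 (-0.20) and without NS array 1 or 2 (-0.25 for each).

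Ndufa4, which was high in MAPC, read 0.63 and 0.59, against -0.16 and -0.05 in ESC and 0.26 and 0.27 in NS. The groups did not overlap. It was 1.64-fold higher in MAPC than in ESC (0.71, SE 0.06) and 0.34 higher than in NS (SE 0.06), and it was lower in ESC than in NS (-0.37, SE 0.06).

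Several subunits of complex IV exist as a common form and a form restricted to muscle, lung or testis. The common Cox4i1 was -0.26 (SE 0.08) in MAPC against NS, a call lost without MAPC array 2 (-0.19), NS array 1 (-0.26) or NS array 2 (-0.27). It was not called in ESC against NS (-0.04, SE 0.08), nor in MAPC against ESC (-0.22, SE 0.08), where leaving out MAPC array 1 or ESC array 1 brought a call (-0.30 for each). Cox4i2, the isoform known to be induced by low oxygen in lung, read -0.51 and -0.44 in MAPC, -0.36 and -0.25 in ESC and -0.71 and -0.64 in NS. It was higher in ESC than in NS (0.37, SE 0.06), and in MAPC than in NS by 0.20 (SE 0.06), a call lost without any of the 4 MAPC and NS arrays (0.16 to 0.24). The dimmer probe of Cox4i2, above every negative control spot on 2 arrays, was called in neither (0.13 and 0.12). Cox7a1, the heart and muscle form of subunit 7A, was 1.84-fold lower in MAPC than in ESC (-0.88, SE 0.11), at 0.09 and -0.27 against 0.76 and 0.82. It was higher in ESC than in NS (0.53, SE 0.11), where the arrays read 0.26 and 0.27, but with the Cy3 channel alone the difference was 0.34 and not called. Its call in MAPC against NS (-0.36) was lost without MAPC array 2 (-0.17), NS array 1 (-0.36) or NS array 2 (-0.35).

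Cox6a2, the heart and muscle form of subunit 6A, was called in no comparison, and its arrays followed the replicate number, at -0.62, -0.52 and -0.53 on the replicate 1 arrays and -0.21, -0.23 and -0.26 on the others. Cox8b, the muscle form of subunit 8, was lower in MAPC (-0.52, SE 0.06) and in ESC (-0.33, SE 0.06) than in NS. Its call in MAPC against ESC (-0.19) was lost without any of the 4 arrays (-0.20 to -0.18). The dimmer probe of Cox8b, above every negative control spot on 2 arrays, was called in none of these comparisons (-0.14, -0.15 and 0.01). The testis form Cox6b2 was lower in MAPC than in ESC (-0.50, SE 0.07) and in NS (-0.41, SE 0.07). The testis form Cox7b2, whose probe did not exceed every negative control spot on all arrays, read 0.32 and 0.08 in MAPC and -0.29 to -0.11 elsewhere. It was 0.47 (SE 0.08) higher in MAPC than in NS and 0.32 (SE 0.08) higher than in ESC, the latter not called without MAPC array 1 (0.20) or ESC array 1 (0.31), nor without background subtraction (0.084). With the Cy3 channel alone neither was called (0.19 and 0.35). The summed signal of 9 testis germ cell markers was 539 to 648 in MAPC, 1074 to 1427 in ESC and 742 to 894 in NS. That of 9 mature muscle markers was 14276 to 14793, 9653 to 14857 and 8415 to 10651. Their part in these isoform values was not tested.

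Of the common forms, Cox8a was lower in MAPC (-0.57, SE 0.07) and in ESC (-0.78, SE 0.07) than in NS. It was not called in MAPC against ESC (0.21, SE 0.07) but was called without ESC array 2 (0.30) and with the replicate number, which matches the extraction day, as a block (0.21, adjusted p = 0.024 in limma). Cox6a1 was lower in ESC than in NS (-0.56, SE 0.09), and in MAPC it read 0.33 and 0.57, between ESC (0.12 and 0.20) and NS (0.65 and 0.79). Its call in MAPC against NS was -0.27 with loess and 0.12 with median centring, and it was lost without MAPC array 1 (-0.15), NS array 1 (-0.34) or NS array 2 (-0.20). Between MAPC and ESC the call (0.29) was lost without MAPC array 2 (0.18), ESC array 1 (0.26) or ESC array 2 (0.33). Cox7a2 was lower in MAPC than in NS (-0.47, SE 0.08); its call in MAPC against ESC (-0.23) was lost without any array except ESC array 1, and that in ESC against NS (-0.24) without any array except ESC array 2, at -0.26 to -0.13. Cox6b1 was lower in ESC than in NS (-0.34, SE 0.10), a call lost without ESC array 1 (-0.24), NS array 1 (-0.30) or NS array 2 (-0.38). It was not called in MAPC against NS (-0.29, SE 0.10), where leaving out MAPC array 1 (-0.43) or either ESC array (-0.29) brought a call. Cox5a and Cox5b were called in none, with differences between -0.03 and 0.07.

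**Figure D5:**
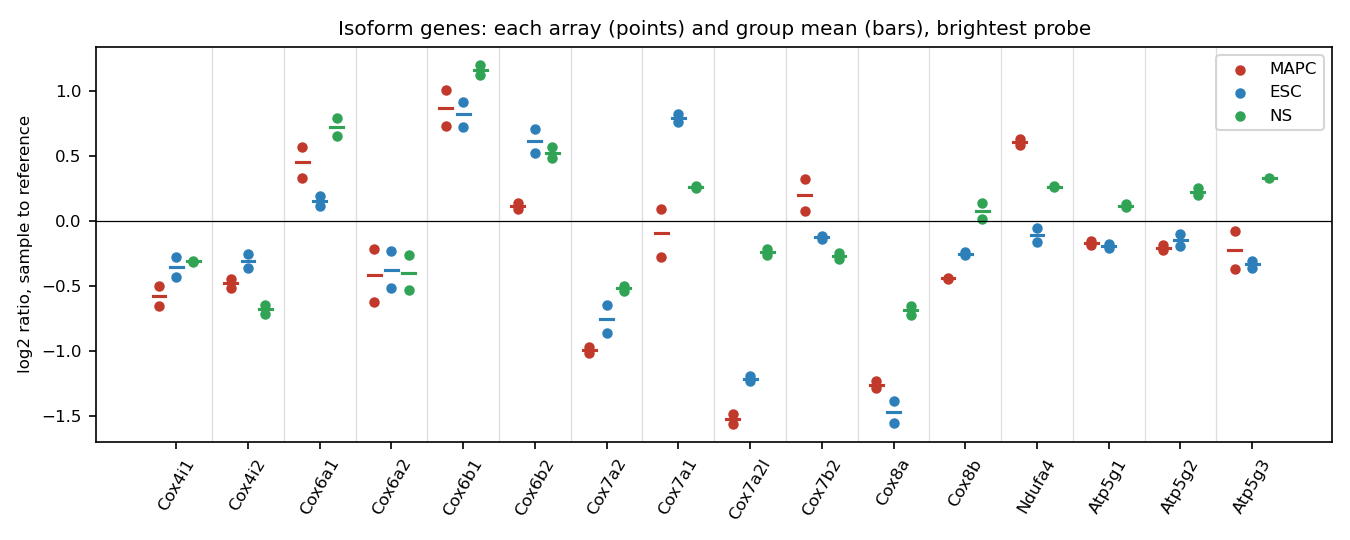
Log2 ratio of sample to reference (y axis) of isoform genes of complexes IV and V (x axis), with each array as a point and group means as bars. Cox7a2l and Cox8a are highest in NS, Cox7a1 in ESC and Ndufa4 in MAPC, and the arrays of Cox6a2 range from -0.62 to -0.21 with the groups overlapping.

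Complex V is the ATP synthase. Of its 15 genes, by the brightest probe, 13 were lower and none was higher in MAPC than in NS, with a median of -0.43, and 10 were lower and none higher in ESC than in NS, with a median of -0.37. By probe, 1 of 22, the dimmer probe of Atp5g1, was higher in ESC than in NS. Between MAPC and ESC, 5 genes were lower and 1 was higher in MAPC. The shares of genes lower in MAPC and in ESC than in NS were 86.7% and 66.7%, beside 22.4% and 18.3% of all tested probes. Of the bright probes 43.3% and 34.2% were lower there. Between MAPC and ESC the share lower was 33.3%, beside 22.2% of all tested probes and 42.0% of bright probes. The largest differences between MAPC and NS were those of Atp5o and Atp5j, of the peripheral stalk that holds the catalytic head in place. Atp5o, the oligomycin sensitivity protein, read -1.15 and -1.19 in MAPC, -1.04 and -0.92 in ESC and -0.26 and -0.27 in NS. It was 1.88-fold below NS in MAPC (-0.91, SE 0.06) and 1.65-fold in ESC (-0.72, SE 0.06), and its call in MAPC against ESC (-0.19) was lost without any array except ESC array 1 (-0.21 to -0.13). Atp5j, coupling factor 6, was 1.67-fold lower in MAPC than in NS (-0.74, SE 0.06), and lower than in ESC (-0.39, SE 0.06), the latter not called with the Cy3 channel alone (-0.28).

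Atp5l, subunit g of the membrane part, was lower in MAPC (-0.55) and in ESC (-0.42) than in NS (SE 0.06 for both). The small membrane protein Atp5mpl was lowest in ESC, at -0.47 and -0.33 against -0.17 and -0.10 in MAPC and 0.24 and 0.30 in NS (-0.67 from NS, SE 0.07); its call in MAPC against ESC (0.26) was lost without MAPC array 2 (0.23) or ESC array 1 (0.19). Atp5j2, subunit f, was lower in MAPC than in NS (-0.44, SE 0.07) and than in ESC (-0.26, SE 0.07), the latter lost without MAPC array 2 (-0.20) or ESC array 2 (-0.19). In ESC against NS it was called only without ESC array 2 (-0.25). The catalytic subunits were lower in MAPC than in NS, Atp5b by -0.43 (SE 0.06) and Atp5a1 by -0.22 (SE 0.06), while the dimmer probe of Atp5a1 was not called (-0.12). Atp5d and Atp5e, of the central stalk, were called in none.

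The c subunit, which forms the rotating ring, is encoded by 3 genes with different leader peptides. Atp5g2 was lower in MAPC (-0.43, SE 0.06) and ESC (-0.37, SE 0.06) than in NS, while its dimmer probe was called in neither (-0.06 and -0.10). Atp5g3 was lower as well (-0.55 and -0.66, SE 0.12 for both), with 1 NS spot left out, so that 1 NS array gave the NS level. Its value in MAPC against ESC, 0.11, was not called and became 0.26, a called value, without MAPC array 1. For Atp5g1 the brightest probe was lower in MAPC (-0.28) and in ESC (-0.31) than in NS (SE 0.05 for both), values that became 0.08 and 0.02 with median centring. Its dimmer probe gave 0.21 (SE 0.07) in MAPC against NS and was not called there. In MAPC against ESC the dimmer probe was lower in MAPC (-0.29, SE 0.07), while the brightest gave 0.02 and was not called.

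The other probe of Atp5g1 went against it in ESC versus NS. The brighter probe read -0.21 and -0.18 in ESC and 0.13 and 0.10 in NS, and the dimmer one 0.29 and 0.48 in ESC and -0.07 and -0.15 in NS, a difference of 0.50 (SE 0.07, adjusted p = 0.00095 in limma). Both were called, in opposite directions, although the probes overlap in 37 of 60 bases. They are printed 5′ to 3′ from the array files with the shared stretch in capitals, to show how alike they are.
Atp5g1 dimmer probe: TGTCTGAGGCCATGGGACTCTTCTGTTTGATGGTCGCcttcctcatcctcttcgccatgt
Atp5g1 brighter probe: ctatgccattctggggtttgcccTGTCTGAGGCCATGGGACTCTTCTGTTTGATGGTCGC
The shared stretch opens the dimmer probe and closes the brighter one. No direction can therefore be given to Atp5g1 in ESC against NS, and in MAPC against NS its probes also differed in sign.

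Ndufb11, an X-linked accessory subunit of complex I, was the other gene with probes called in opposite directions. In MAPC against ESC its brighter probe gave 0.31 (SE 0.07) and its dimmer probe -0.33 (SE 0.05), and the 2 probes share no more than 4 bases in a row. Against NS both were lower in MAPC (-0.57 and -1.18) and in ESC (-0.88 and -0.85). The dimmer probe did not exceed every negative control spot on all arrays. Of the 22 genes with several probes, 14 had the same call on all of them in MAPC against NS, 16 in ESC against NS and 17 in MAPC against ESC. Processed pseudogenes are another limit, since 19 pseudogenes in the RefSeq table carry a symbol of the name rule and a probe may bind their transcripts.

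Atpif1, the inhibitor that stops complex V from running in reverse, fell outside the name rule. It read -1.42 and -1.40 in MAPC, -0.84 and -0.84 in ESC and -0.20 and -0.22 in NS. It was 2.30-fold lower in MAPC than in NS (-1.20), 1.54-fold lower in ESC than in NS (-0.63) and 1.49-fold lower in MAPC than in ESC (-0.57, SE 0.05 for each).

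Electron carriers and assembly proteins outside the rule were called in both directions. Of 29 such genes, 13 were higher and 8 lower in MAPC than in NS (median 0.18), 11 higher and 10 lower in ESC than in NS (0.07), and 10 higher and 9 lower in MAPC than in ESC (-0.06). Of all tested probes 21.8% were higher and 22.4% lower in MAPC than in NS, and 20.4% and 18.3% in ESC than in NS. In MAPC against ESC 16.3% were higher and 22.2% lower. These shares also stand beside the counts of the lists that follow. Uqcc2, an assembly factor of complex III, was low in MAPC, at -2.05 and -1.93 against -0.34 to -0.28 elsewhere, 3.21-fold below ESC and 3.17-fold below NS. Cyc1, the cytochrome c1 of complex III, was higher in MAPC than in ESC (0.87) and NS (0.54). Cyct, the testis cytochrome c, whose probe exceeded every negative control spot on 3 arrays, was high in ESC alone, at 3.82 and 3.29 against -0.31 to -0.12 elsewhere. Higd1a, a partner of complexes III and IV induced by low oxygen, was lower in MAPC (-1.34) and in ESC (-1.37) than in NS. Cox14, which helps assemble complex IV, and Acad9, which helps assemble complex I, were lower in MAPC than in NS (-1.07 and -1.54), and Coa7 (1.22) and Ecsit (1.05), assembly factors of complexes IV and I, were higher in ESC than in NS.

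Of 22 genes of the citrate cycle and of pyruvate entry, 13 were lower and 3 higher in MAPC than in NS (median -0.30), and 11 lower and 4 higher in ESC than in NS (-0.18). Between MAPC and ESC, 6 were lower and 9 higher in MAPC (0.11). Mpc1, the mitochondrial pyruvate carrier, was lower in MAPC (-1.98) and in ESC (-2.41) than in NS. Idh2, the NADP-dependent isocitrate dehydrogenase, followed with -0.91 and -1.80. Pdk1, the kinase that shuts pyruvate dehydrogenase, whose probe exceeded every negative control spot on 5 arrays, was lower in MAPC than in ESC (-4.40) and than in NS (-4.67, from 1 NS array). Of 14 carriers and channels, 2 were higher and 4 lower in MAPC than in NS (median -0.03), 5 higher and 4 lower in ESC than in NS (0.03), and 1 higher and 4 lower in MAPC than in ESC (-0.09). Slc25a5, an ADP/ATP carrier, was lowest in MAPC (-1.25 from NS and -0.65 from ESC).

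Regulators of mitochondrial genes were more often higher than lower in MAPC and ESC when set against NS. Of 19 regulators, 10 were higher and 5 lower in MAPC than in NS (median 0.24), 9 higher and 3 lower in ESC than in NS (0.15), and 4 higher and 6 lower in MAPC than in ESC (-0.03). The shares higher and lower of all tested probes were 21.8% and 22.4%, 20.4% and 18.3%, and 16.3% and 22.2%. Of the subunits of the GABP factor, Gabpa and Gabpb1 were lower in NS and Gabpb2 was higher in NS, at -0.77 in MAPC and -0.76 in ESC against NS. Gabpa read 1.74 and 1.62 in MAPC, 1.86 and 1.74 in ESC and 0.44 and 0.46 in NS, and Gabpb1 was 3.42-fold higher in MAPC and 3.21-fold higher in ESC than in NS. Nrf1, another activator of respiratory genes, was higher in MAPC (0.51) and ESC (0.37) than in NS. Its probe exceeded every negative control spot on 5 of 6 arrays. Esrra, an orphan receptor with targets in the same pathway, was lower in MAPC (-0.80) and in ESC (-1.02) than in NS.

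Because GABP and NRF1 are known for binding respiratory gene promoters, their motifs were counted in the 250 bases before each gene's start. RefSeq promoters on GRCm38.p6 were held for 59 of the 72 genes. The NRF1 motif searched is the run of 10 letters in capitals in the Atp5k promoter printed here, which reads the same on both strands. It stood in 4 of 59 (6.78%), against 0.877% of all 27025 genes with a promoter. A gene counted when any of its listed promoters held the motif. The ETS motif CCGGAAG, read on both strands, stood in 10 of 59 (16.9%), against 7.83%. A match is a description of the sequence and not of binding. A set of 4 promoters is shown, on their genes' strand and with the motifs in capitals, to place these letters in complexes III, IV and V: Cox6a1 at chr5:115348959-115349208, Atp5k at chr5:108434400-108434649, Atp5g2 at chr15:102671048-102671297 and Uqcrh at chr4:116075071-116075320, all on the minus strand.
Cox6a1: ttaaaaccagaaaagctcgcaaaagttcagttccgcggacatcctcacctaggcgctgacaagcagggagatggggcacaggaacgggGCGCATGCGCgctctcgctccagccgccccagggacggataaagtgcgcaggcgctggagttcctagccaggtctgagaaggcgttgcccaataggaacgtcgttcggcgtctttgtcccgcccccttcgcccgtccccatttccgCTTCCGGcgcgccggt
Atp5k: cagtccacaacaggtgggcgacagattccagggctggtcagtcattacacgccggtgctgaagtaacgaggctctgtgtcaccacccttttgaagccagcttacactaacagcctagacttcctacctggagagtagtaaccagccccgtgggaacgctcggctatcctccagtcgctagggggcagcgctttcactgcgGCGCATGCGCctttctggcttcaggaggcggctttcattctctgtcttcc
Atp5g2: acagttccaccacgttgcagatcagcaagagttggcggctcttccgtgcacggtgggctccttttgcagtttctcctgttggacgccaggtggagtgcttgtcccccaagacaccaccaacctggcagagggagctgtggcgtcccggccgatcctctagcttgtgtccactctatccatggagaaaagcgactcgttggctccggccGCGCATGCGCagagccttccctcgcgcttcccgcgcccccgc
Uqcrh: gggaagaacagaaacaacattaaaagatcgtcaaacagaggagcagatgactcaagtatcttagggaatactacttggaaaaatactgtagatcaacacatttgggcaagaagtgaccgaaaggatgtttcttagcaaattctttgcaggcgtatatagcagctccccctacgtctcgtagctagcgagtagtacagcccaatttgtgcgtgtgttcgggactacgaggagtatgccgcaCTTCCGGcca
Cox6a1 holds both motifs, Atp5k and Atp5g2 the NRF1 motif, and Uqcrh the ETS motif. In both Cox6a1 and Uqcrh the ETS motif stands in reverse. Atp5k, Atp5g2 and Uqcrh were lower in MAPC and in ESC than in NS by their brightest probes. The dimmer probes of Atp5k (-0.08 and -0.23) and Atp5g2 were called in neither comparison. Ndufaf4, the remaining gene with the NRF1 motif, was higher in MAPC than in NS, so genes with this motif did not share a direction. Of the 10 genes with the ETS motif, Atp5j, Atp5l, Cox6a1, Uqcr11 and Uqcrh were lower in MAPC and in ESC than in NS. With median centring Atp5j, Atp5l, Cox6a1 and Uqcr11 lost the call in ESC against NS. The Cox6a1 value in MAPC against NS became 0.12 with median centring, and the dimmest Cox6a1 probe was not called there (-0.07). Cox6b1 was called lower in ESC only. Ndufb7 was higher in MAPC than in NS, Ndufaf1 was higher in ESC than in NS, and Sdhd and Atp5e were called in neither. The genes with the ETS motif thus did not share a direction either.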

How the data were processed

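RNA of MAPC, ESC and NS was measured on 6 two-colour Agilent arrays (2 per group) against a pooled reference. Per the file headers, the authors' scanner files hold mean and local background intensity per spot and dye, read with Agilent Feature Extraction A.7.5.1. They also hold processed intensities, background-subtracted and dye-normalized by that program. The deposited series matrix is in log10 units, with column medians of 2.95 to 2.97. For 90.1% of 39546 spots not at its value of 2 it equalled, within 0.001, the log10 ratio of processed intensities plus a constant of the spot, which gives its scale and direction there. How it was centred, and how the remaining values were made, is not known.

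Signals were corrected by normexp (offset 50) and loess within arrays in limma 3.58.1 under R 4.3.3, with the data.table package (version 1.17.8). Log2 ratios of deposited intensities were formed as sample over reference. Control spots and outlier spots were left out and spots of a probe averaged. A probe was tested where some group had it well above background in Cy3 on each of its arrays. A single fit (lmFit, eBayes, two-sided) of 6 arrays had 3 residual degrees of freedom. With 2 arrays a group, no permutation of arrays could reach 0.05, and the number of arrays limits precision. Of 41006 probes, 15294 were named by accession, 72 by an older symbol, 15 by symbol and 25625 not at all. Columns without a sample numbered 0. The fit was tested on simulated data.

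Genes were named by a rule: up to 3 called genes per complex and comparison with the largest difference and no overlap of arrays, every called gene at least 2-fold apart, tissue isoforms whatever their values, and genes with probes called in opposite directions. Named after their values were seen, and not run under the alternatives one by one, were Ndufab1, Ndufb7, Ndufs1, Ndufs7, Ndufs8, Ndufv1, Uqcrc1, Cox5a, Cox5b, Atp5a1, Atp5b, Atp5d, Atp5e and Atp5k. Of other lists, up to 4 genes with the largest called differences were eligible; Nrf1 was added for its motif. Some items are not reported here. Members and lists were chosen with earlier results of these data known.

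Same-numbered arrays deviated together with correlations of 0.09 (MAPC and ESC), 0.16 (MAPC and NS) and 0.21 (ESC and NS), so the numbers were not taken as pairs. Alternatives covered background correction, normalization, reference channel, dim-probe filters, outlier spots, probes per gene, replicate block, groups fitted and each array left out.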

Additional observations from a re-analysis of the deposited data

How the results depend on the processing

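Leaving out each array in turn gave 53 to 63 lower and 7 to 11 higher member probes in MAPC against NS, 44 to 56 lower and 5 to 6 higher in ESC against NS, and 22 to 33 lower and 11 to 17 higher in MAPC against ESC. Median centring in place of loess gave 13 higher in MAPC against NS, and 10 higher and 32 lower in ESC against NS. The Cy3 channel alone gave 15 lower in MAPC against ESC, 4 higher in MAPC against NS and 1 higher in ESC against NS. Keeping only the 64 members with a mean log2 intensity over 12, chosen after seeing the data, left 3 higher in MAPC against NS and 2 in ESC against NS. The other 32 member probes held 5 and 4 of the higher calls. With median centring the sign turned for Atp5g1 (0.078 in MAPC and 0.016 in ESC against NS), Cox6a1 (0.12 in MAPC against NS), Cox6c (0.0035) and Cox7c (0.086, both in ESC against NS). With the Cy3 channel alone it turned for Ndufaf4 (-0.33) and Sdhd (-0.51) in ESC against NS, both called there; the cause was not tested. The deposited processed signals ended the calls of Atp5mpl, Cox6a1, Cox7a2 and Cox8b in MAPC against ESC, of Cox4i1, Cox4i2 and Cox7a1 in MAPC against NS, and of Cox6b1, Cox6c, Cox7a2, Cox7c and Ndufa7 in ESC against NS. Of 120 results of 40 named genes, 65 kept call and direction in every setting run. Aquantile leaves ratios unchanged by construction. The replicate number as a block gave 18 higher and 32 lower in MAPC against ESC, 8 and 61 in MAPC against NS, and 6 and 57 in ESC against NS; the numbers match the extraction days, and no call count moved by over 1.5 times. Among named genes the block brought a call for Cox4i2 and Cox8a in MAPC against ESC and ended that of Cox7c in ESC against NS. Signal near background limits the 6 member probes not above every negative control spot, which are those of Ndufv3 and Cox7b2 and the dimmer ones of Ndufb11, Cox4i2, Cox6a2 and Cox8b.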
